A study of Rattus norvegicus with 20 samples.

Results

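Peroxisomes are small organelles, abundant in liver, that shorten long fatty acids and break down hydrogen peroxide, and the proteins that build them are called peroxins. The transcripts of 9 such genes were followed in rat liver over 4 diets: Pex11a for division, Pex3, Pex16 and Pex19 for the insertion of membrane proteins, Pex5, Pex13 and Pex14 for the import of matrix proteins, and the membrane proteins Pxmp2 and Pxmp4. The 9 genes were chosen with earlier results of these data known. Members were taken by name, as every probe set whose platform annotation carries 1 of these 9 symbols and no other. They are 9 of the 14217 genes named on the array and 9 of the 11576 genes bright enough to be tested. Their 13 probe sets all exceeded the filter level on all 20 arrays, with 2 probe sets for Pex11a, Pex16, Pex5 and Pxmp4 and 1 for each of the other 5 members. A further 2 probe sets list Pex19 together with a second gene and were not used.

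Male Sprague-Dawley rats arrived at 4 weeks of age, were acclimatised for 7 d on a commercial diet and then ate 1 of 4 experimental diets for 15 d. The diets held no lignan or 0.2% of sesamin, episesamin or sesamolin, which are lignans of sesame seed. Each diet had 7 rats, of which the heaviest and the lightest were left out, and liver RNA of the other 5 was hybridised to Affymetrix arrays, 1 array per rat. Episesamin is an epimer of sesamin, so that the pair has the same atoms and bonds and differs in configuration at 1 ring carbon, whereas sesamolin has an oxygen bridge between an aromatic group and the central double ring. The dose and the time were the same for the 3 lignans.

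In the biology of this organelle, PEX3, PEX16 and PEX19 act first: PEX19 is a chaperone in the cytosol that carries newly made membrane proteins, PEX3 is its anchor on the peroxisome, and PEX16 recruits PEX3. Enzymes of the matrix then enter, carried by the cycling receptor PEX5, which docks on PEX14 and PEX13. PEX11 proteins bend and elongate the membrane before fission. In rodent liver, Pex11a is a known target of the fatty acid receptor PPARalpha, and agonists of that receptor multiply peroxisomes.

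Promoters are shown for Pex11a, Pex19 and Pex3, since these members rose and since PPARalpha binds a direct repeat of AGGTCA with a spacer of 1 base. Each run is a RefSeq promoter of assembly GRCr8, 250 bases before to 50 after the annotated start, written 5′ to 3′ along the gene. The capitals mark the stretch that comes closest to AGGTCA, any base, AGGTCA on either strand. The Pex11a promoter lies at chr1:143096442-143096741 on the minus strand, that of Pex19 at chr13:87124448-87124747 on the plus strand and that of Pex3 at chr1:9774430-9774729 on the minus strand.
Pex11a: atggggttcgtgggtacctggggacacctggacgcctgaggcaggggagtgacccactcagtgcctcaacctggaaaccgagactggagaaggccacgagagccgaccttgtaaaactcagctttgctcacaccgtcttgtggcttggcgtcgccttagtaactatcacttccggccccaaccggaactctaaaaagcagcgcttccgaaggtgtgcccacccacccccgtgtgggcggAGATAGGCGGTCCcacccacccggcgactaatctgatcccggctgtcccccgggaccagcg
Pex19: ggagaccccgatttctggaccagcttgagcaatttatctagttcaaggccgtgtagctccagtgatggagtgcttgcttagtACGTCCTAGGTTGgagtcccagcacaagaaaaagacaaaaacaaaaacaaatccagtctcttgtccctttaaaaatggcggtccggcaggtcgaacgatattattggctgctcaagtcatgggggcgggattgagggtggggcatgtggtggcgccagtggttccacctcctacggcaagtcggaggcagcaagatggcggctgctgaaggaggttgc
Pex3: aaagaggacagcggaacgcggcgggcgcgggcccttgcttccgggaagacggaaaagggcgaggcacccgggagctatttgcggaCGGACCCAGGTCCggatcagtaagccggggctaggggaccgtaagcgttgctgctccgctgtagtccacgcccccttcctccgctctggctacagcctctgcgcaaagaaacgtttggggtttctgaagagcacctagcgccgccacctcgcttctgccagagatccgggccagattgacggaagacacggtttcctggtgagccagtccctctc
The closest stretch matched 7 of the 12 fixed bases in Pex11a, with 8 stretches tied, and 8 of 12 in Pex19 (2 tied) and in Pex3. In all 9 members, no window matched 9 or more of the 12 bases, while 24.9% of the 33469 promoters in the table did. Matches of 8 or more bases were held by 7 of the 9 members and by 80.3% of all promoters. For Pex16 the start used by the table lies 2388 bases inside the annotated gene, so its promoter is not shown. For Pex5 that start lies 848 bases inside the gene. Both are among the 9 counted above. Only these 300 bases of each gene were searched, so the counts do not speak to sites elsewhere.

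Array brightness and cell markers set the frame for all values below. Mean raw intensity per array ran from 159 to 271, a 1.70-fold range, and 6 arrays lay below 200 (1 lignan-free, 1 sesamin, 2 episesamin and 2 sesamolin). Brightness in the lignan groups was tested against the lignan-free group by two-sided exact permutation and no p was below 0.05 (p = 0.54, 0.151 and 0.262, n = 5 per group). For the label liver, 10 hepatocyte markers were read. Their summed intensity had a median of 81343 without lignan, 81840 with sesamin, 79466 with episesamin and 79999 with sesamolin, and all 10 were among the genes tested. Of 11 markers of Kupffer cells, the resident macrophages, 9 were tested. Their summed intensity ran from 4971 to 5850 without lignan, 3643 to 5570 with sesamin, 3734 to 4598 with episesamin and 2626 to 4206 with sesamolin. By limma, 0, 2 and 6 of the 9 were lower with sesamin, episesamin and sesamolin (1, 6 and 9 at an unadjusted p below 0.05). No marker tested was at 0 in any group, and Marco and Vsig4 were not tested. Of 6 endothelial markers tested, 0, 2 and 2 were lower (0, 2 and 2 unadjusted). None passed as higher, with 0, 1 and 0 higher at an unadjusted p below 0.05. In such bulk RNA, fewer cells of a type and less RNA per cell cannot be told apart, and the part of these markers in the results on peroxins was not tested.

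Pex11a, the division factor, rose with all 3 lignans and had the widest change among the 9 members in each comparison with the lignan-free diet. Levels here are normalized intensities, in linear units of the scanner that cannot be set against another probe set. Its 5 arrays read 153, 168, 210, 172 and 256 without lignan and 791, 579, 546, 637 and 480 with sesamin. With episesamin they read 1777, 1253, 1212, 1749 and 1481, and with sesamolin 1841, 663, 1008, 1071 and 1666. The lowest array of each lignan lay above the highest lignan-free array, and the sesamolin arrays overlapped both other lignans. Group means were 192 ± 41.8, 607 ± 117, 1494 ± 266 and 1250 ± 489 (SD, n = 5) in the order lignan-free, sesamin, episesamin, sesamolin.

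Changes are given on the log2 scale with their SE, estimated by limma from the 20 arrays together (n = 5 rats per diet), and an adjusted p below 0.05 after Benjamini-Hochberg correction over the 11576 genes counts as passing. By this fit Pex11a was 1.64 ± 0.23 higher with sesamin, or 3.11-fold (adjusted p = 0.000476). The rise was 2.93 ± 0.23 with episesamin, or 7.62-fold (adjusted p = 5.86e-08), and 2.60 ± 0.23 with sesamolin, or 6.05-fold (adjusted p = 3.39e-07). The 3 comparisons share the 5 lignan-free arrays. These calls held in each of the 35 alternative analyses, where the adjusted p reached at most 0.0237, 1.38e-05 and 0.000422. A second, dimmer Pex11a probe set (1387740_at) read 40.3 ± 10.6 without lignan and 169 ± 49.9, 645 ± 148 and 538 ± 228 with sesamin, episesamin and sesamolin. Its changes, adjusted over 15894 probe sets, were 1.91, 3.82 and 3.46 ± 0.29 and all passed. Both probe sets thus gave the same order of diets, and their correlation over the 20 arrays was 0.976 (0.722 within diets).

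**Figure D1:**
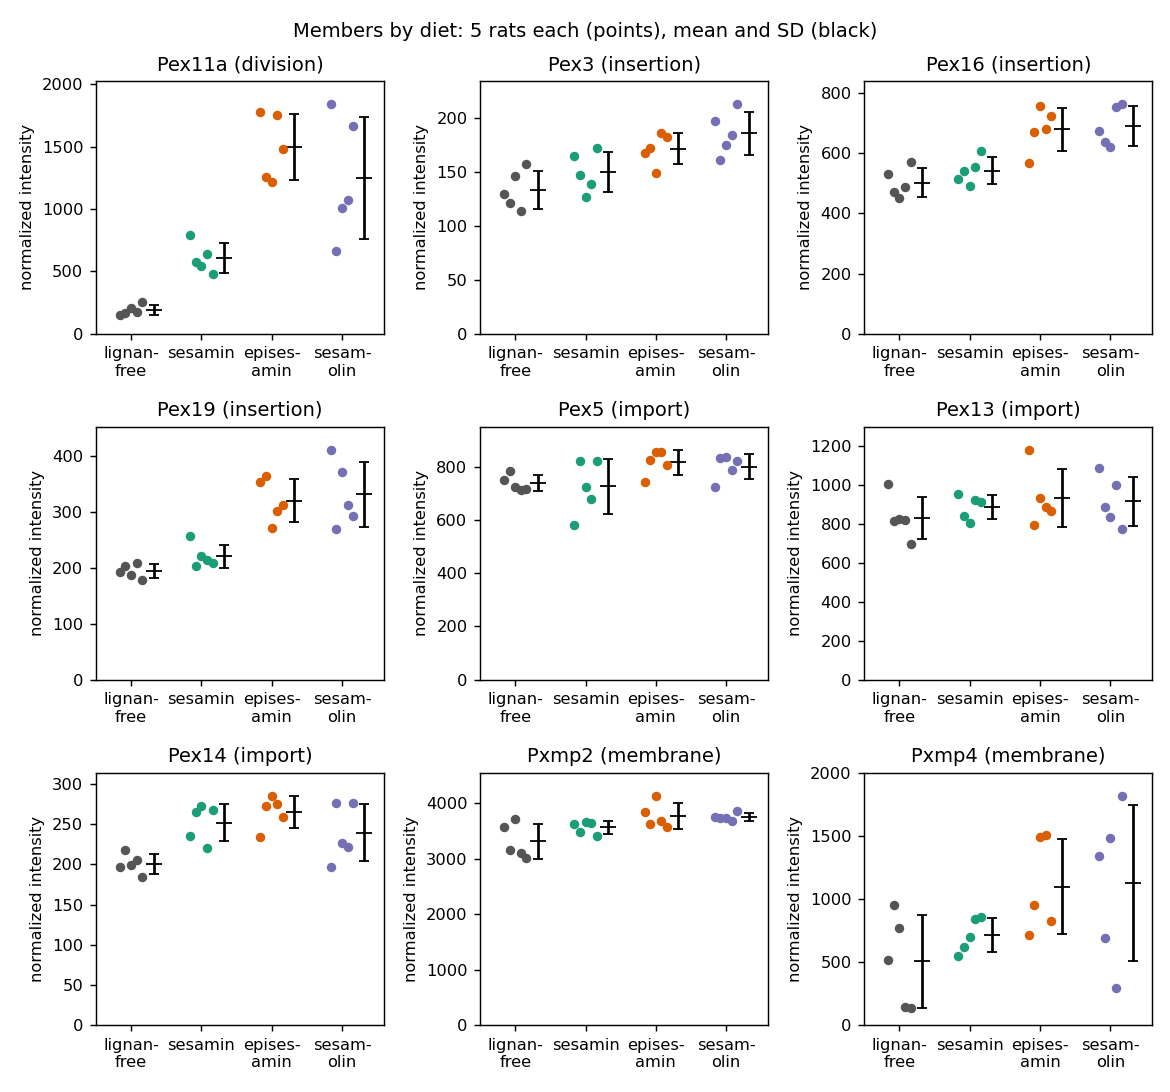
Normalized intensity of the 9 members in each diet, one panel per member with its own vertical axis from 0. Points are the 5 arrays of a diet and the bars are mean ± SD. Pex11a separates the lignan-free arrays (153 to 256) from every lignan array (480 or more), while Pxmp4 spreads from 139 to 955 within the lignan-free diet alone.

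The 3 insertion factors rose with sesamolin, 2 of them also with episesamin, and none passed with sesamin (unadjusted p below 0.05 for 0 of 3). Pex19, the chaperone for membrane proteins, read 193, 204, 187, 209 and 178 without lignan and 257, 204, 222, 213 and 208 with sesamin. It read 354, 364, 271, 302 and 313 with episesamin and 411, 269, 371, 313 and 292 with sesamolin. All arrays of episesamin and sesamolin lay above all arrays of the lignan-free and sesamin diets. Relative to the lignan-free diet, Pex19 was 0.70 ± 0.11 higher with episesamin, or 1.62-fold (adjusted p = 0.000723), and 0.74 ± 0.11 higher with sesamolin, or 1.67-fold (adjusted p = 0.000426). The difference with sesamin was 0.18 ± 0.11 (adjusted p = 0.806), with a 95% interval from -0.06 to 0.41.

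Pex16, which recruits PEX3 to the membrane, read 532, 470, 453, 488 and 570 without lignan and 514, 540, 493, 555 and 608 with sesamin. With episesamin the arrays read 569, 669, 756, 681 and 725, and with sesamolin 675, 639, 621, 755 and 763. The sesamolin arrays lay above all lignan-free arrays, and 1 episesamin array fell just within the lignan-free range. Pex16 was 0.43 ± 0.10 higher with episesamin (adjusted p = 0.0123) and 0.45 ± 0.10 higher with sesamolin (adjusted p = 0.00763), against 0.11 ± 0.10 with sesamin (adjusted p = 0.878). These rises rest on the brighter of its probe sets: the dimmer one (1392333_at, 41.3 ± 16.8 without lignan) was at 0.13 ± 0.24 with episesamin and 0.34 ± 0.24 with sesamolin and did not pass. The mean of both probe sets ended both calls (adjusted p = 0.293 and 0.121), and their correlation over the 20 arrays was 0.284.

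Pex3, the membrane anchor, read 130, 121, 146, 114 and 157 without lignan and 165, 147, 127, 139 and 173 with sesamin. It read 168, 172, 149, 186 and 183 with episesamin and 197, 161, 175, 184 and 213 with sesamolin. The sesamolin arrays were all above the lignan-free arrays, and those of the other 2 lignans overlapped them. Pex3 was 0.47 ± 0.11 higher with sesamolin (adjusted p = 0.0142). It was at 0.35 ± 0.11 with episesamin (adjusted p = 0.0619; 0.0455 without lignan-free array 5) and at 0.16 ± 0.11 with sesamin (adjusted p = 0.812). In the same comparisons 2 (episesamin) and 6 (sesamolin) of the 9 Kupffer markers were lower, and their part in these rises was not tested.

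Among the import factors, only Pex14 passed, and only with episesamin. Pex14, the docking protein, read 196, 218, 199, 205 and 185 without lignan and 235, 265, 272, 220 and 267 with sesamin. It read 234, 272, 285, 275 and 259 with episesamin and 196, 276, 226, 221 and 276 with sesamolin. Sesamin and episesamin arrays lay above all lignan-free arrays, and 1 sesamolin array lay among them. Pex14 was 0.39 ± 0.10 higher with episesamin (adjusted p = 0.0264), against 0.32 ± 0.10 with sesamin (adjusted p = 0.354) and 0.24 ± 0.10 with sesamolin (adjusted p = 0.176). Its difference between episesamin and sesamin was 0.07 (95% interval -0.13 to 0.28) and that between sesamolin and episesamin was -0.15 (-0.36 to 0.05), so a difference between lignans in Pex14 was not shown. The episesamin call was lost without lignan-free array 1 (adjusted p = 0.0534), lignan-free array 5 (0.0721), episesamin array 3 (0.0659) or episesamin array 4 (0.0621).

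Pex5, the cycling receptor for matrix enzymes, had means of 737 ± 30.2, 725 ± 102, 816 ± 46.6 and 800 ± 47 (SD, n = 5) in the order lignan-free, sesamin, episesamin, sesamolin. Its changes were -0.03, 0.15 and 0.12 ± 0.09 with sesamin, episesamin and sesamolin, and none passed. The 95% intervals reached from -0.22 to 0.15, from -0.04 to 0.33 and from -0.07 to 0.30. These limits hold for the brighter Pex5 probe set. The dimmer one (1385283_at, 44.0 ± 13.5 without lignan) was at 0.19, 0.39 and 0.34 ± 0.21 and did not pass. Its intervals ended at 0.62, 0.83 and 0.77. Pex13, the partner of PEX14 in docking, had means of 831 ± 108, 885 ± 61.6, 930 ± 147 and 915 ± 127 and changes of 0.10, 0.16 and 0.14 ± 0.12 that did not pass. The intervals of Pex13 ended at 0.34, 0.41 and 0.38, well under the changes of Pex11a.

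Neither of the other membrane proteins passed, and they stand at opposite ends of variability. Pxmp2, a channel-forming protein of the peroxisome membrane, varied little: its means were 3313 ± 315, 3564 ± 111, 3766 ± 229 and 3753 ± 67. The changes of Pxmp2 were 0.11, 0.19 and 0.18 ± 0.07, with adjusted p = 0.812, 0.149 and 0.149 by limma. Its SD within diets was 0.084 on the log2 scale, at the 1.58 percentile of all genes tested. Pxmp4, a membrane protein of less settled function, had a within-diet SD of 0.88, at the 99.2 percentile, against a median of 0.26 for all genes.

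Pxmp4 read 519, 955, 774, 148 and 139 without lignan and 553, 625, 698, 847 and 862 with sesamin. It read 717, 951, 1491, 1512 and 829 with episesamin and 1341, 691, 1489, 299 and 1823 with sesamolin. Lignan-free arrays 4 and 5 and sesamolin array 4 were low, and all groups overlapped the lignan-free range. Its changes of 0.88, 1.44 and 1.30 ± 0.52 are the second widest among the members and did not pass (adjusted p = 0.779, 0.121 and 0.16). Without sesamolin array 4 the sesamolin change was 1.71 (adjusted p = 0.0495). The same arrays were low on the second Pxmp4 probe set, 1393421_at (70.2 and 65.4 in lignan-free arrays 4 and 5 and 155 in sesamolin array 4), and the correlation of both probe sets was 0.985 over 20 arrays and 0.980 within diets.

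**Figure D2:**
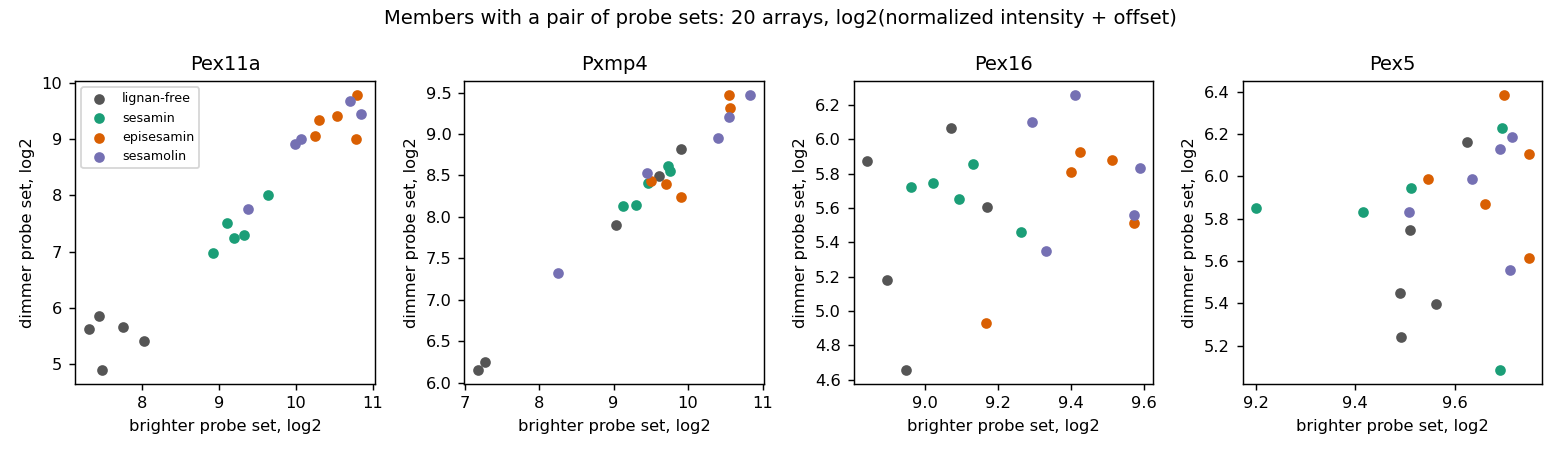
Log2 intensity of one probe set against the other for the 4 members with 2 probe sets, each point an array coloured by diet. Points of Pex11a (r = 0.976) and Pxmp4 (r = 0.985) lie along a line, and those of Pex16 (r = 0.284) and Pex5 (r = 0.208) scatter.

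Counted by role, sesamin raised 1 of 9 members (Pex11a), where 0.432% of all genes tested passed, 0.397% higher and 0.0346% lower. With episesamin 4 of 9 passed, all higher (Pex11a, Pex16, Pex19 and Pex14), beside 5.12% of all genes, 2.91% higher and 2.21% lower. With sesamolin 4 of 9 passed, all higher (Pex11a, Pex3, Pex16 and Pex19), beside 6.24% of all genes, 3.28% higher and 2.95% lower. No member was lower in these comparisons (0 at an unadjusted p below 0.05, where 2, 7 and 7 members were higher). At that unadjusted level, 862, 2279 and 2347 of the 11576 genes were found in either direction. By role, the division factor passed with each lignan, the insertion factors gave 0, 2 and 3 of 3, the import factors 0, 1 and 0 of 3 and the other membrane proteins 0, 0 and 0 of 2. The median change over the members was 0.16, 0.39 and 0.45, beside -0.01, -0.02 and -0.01 over all genes. Members whose 5 lignan arrays all lay above the 5 lignan-free arrays numbered 2, 3 and 4, beside 1.09%, 3.81% and 3.7% of all genes. An F test over the 4 diets passed for Pex11a (adjusted p = 1.98e-07), Pex19 (0.000367), Pex16 (0.00903) and Pex3 (0.0419), and for 4.89% of all genes.

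Under median scaling and without normalization, Pex11a alone passed with episesamin. Pex11a and Pex19 passed with sesamolin under median scaling, and Pex11a alone without normalization. Without the 6 dim arrays, the calls of Pex16 and Pex14 with episesamin were lost at changes of 0.34 and 0.34 (adjusted p = 0.179 and 0.131). With sesamolin, those of Pex3 and Pex16 were lost at 0.50 and 0.40, close to the 0.47 and 0.45 over all arrays (adjusted p = 0.0585 and 0.0924). The episesamin call was also lost for Pex14 with array brightness as a covariate (0.33, adjusted p = 0.0573) and for Pex16 in a fit limited to the arrays compared (0.43, 0.0575). The sesamolin call of Pex3 was lost in such a fit (0.47, adjusted p = 0.056) and without the arrays numbered 1 (0.44, 0.0817). The background by direction turned with the scaling: with episesamin 337 genes were higher and 256 lower, against 180 and 496 under median scaling and 73 and 190 without normalization. With sesamolin 380 were higher and 342 lower, against 177 and 454 under median scaling and 68 and 195 without normalization. With sesamin the split was 46 and 4, against 28 and 7 and 17 and 1. Without normalization the median of all genes moved to -0.08, -0.25 and -0.22 with sesamin, episesamin and sesamolin. Relative to that median the values of Pex11a were 1.61, 2.90 and 2.59, those of Pex19 0.15, 0.66 and 0.71 and those of Pex16 0.09, 0.43 and 0.46. Read without that reference, 3 of the 9 members fell below 0 with episesamin (Pex5, Pex13 and Pxmp2) and 3 with sesamolin (Pex5, Pex13 and Pex14), none of them a member that passed in that comparison with quantile normalization.

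**Figure D3:**
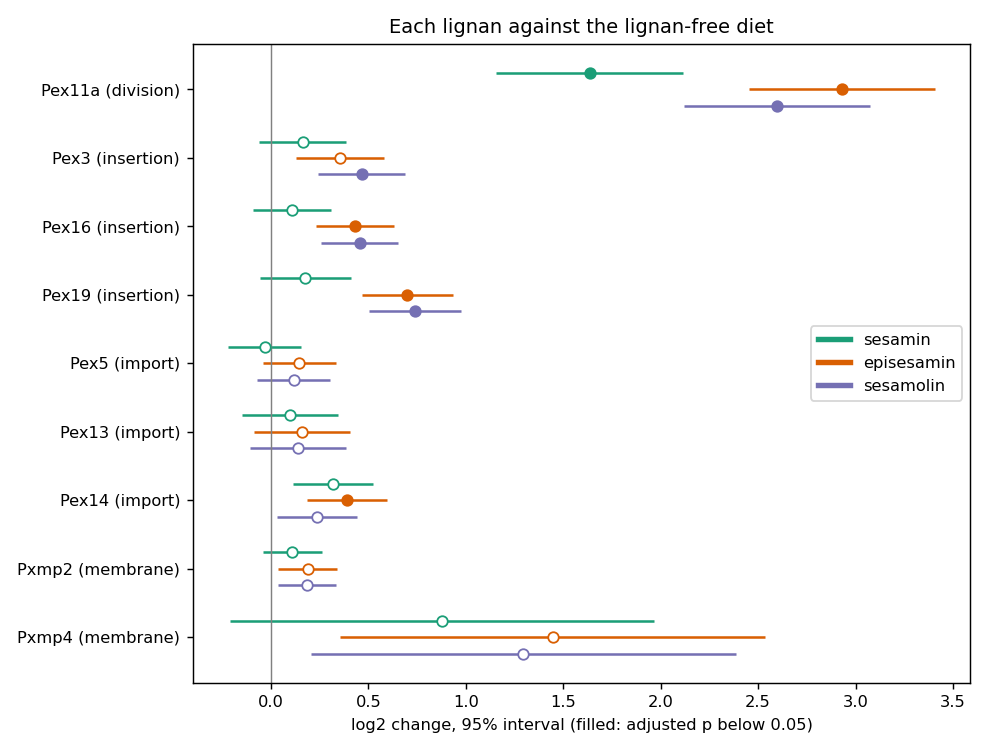
Log2 change of each member with sesamin, episesamin and sesamolin relative to the lignan-free diet, with 95% intervals, and filled points for an adjusted p below 0.05. Pex11a stands at 1.64, 2.93 and 2.60, the insertion factors with episesamin and sesamolin lie between 0.35 and 0.74, and the intervals of Pxmp4 are the widest.

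The 3 lignans were then compared with each other at the same dose and time, as 3 pairs, each adjusted over all genes. Episesamin and sesamolin gave higher Pex11a and Pex19 than sesamin, and no member differed between sesamolin and episesamin. For the epimers, Pex11a was 1.29 ± 0.23 higher with episesamin than with sesamin, or 2.45-fold (adjusted p = 0.00562), with no overlap of arrays. Pex19 was 0.52 ± 0.11 higher, or 1.44-fold (adjusted p = 0.0243), also with no overlap. These are 2 of 9 members, where 1.23% of all genes passed and 0.821% were higher, and 2.15% had no overlap in this direction. The other 7 did not pass, with differences from 0.06 (Pex13, 95% interval -0.19 to 0.31) to 0.57 (Pxmp4, -0.52 to 1.66).

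The Pex19 difference between the epimers was lost when sesamin array 2, 3, 4 or 5 or episesamin array 1, 2 or 5 was left out (adjusted p from 0.0529 to 0.0726, with changes from 0.48 to 0.53). It was also lost under median scaling (0.48, adjusted p = 0.314), without normalization (0.34, adjusted p = 0.625) and in a fit limited to the arrays of the pair (0.52, adjusted p = 0.0723). The Pex11a difference was lost only without normalization (1.12, adjusted p = 0.186) among the 35 alternatives.

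Sesamolin, with its oxygen bridge, gave Pex11a 0.96 ± 0.23 higher than sesamin, or 1.95-fold (adjusted p = 0.0344), though the arrays overlapped. Pex19 was 0.56 ± 0.11 higher, or 1.48-fold (adjusted p = 0.0134), with no overlap. These are again 2 of 9 members, where 1.81% of all genes passed and 1% were higher, and 2.3% had no overlap in this direction. Pex16 was at 0.34 ± 0.10 with no overlap and did not pass (adjusted p = 0.0747). The Pex11a difference was lost without sesamin array 2, 3, 4 or 5 or sesamolin array 1, 3, 4 or 5 (0.80 to 1.02, adjusted p from 0.0553 to 0.0979), and its arrays ran from 663 to 1841 with sesamolin. Both calls were lost, at differences of similar size, under median scaling (0.98 for Pex11a and 0.55 for Pex19; adjusted p = 0.0966 and 0.172) and in a fit limited to the arrays of the pair (0.96 and 0.56; 0.152 and 0.102). Without normalization the differences were 0.84 and 0.41 and did not pass (adjusted p = 0.335 and 0.627). The Pex11a call was also lost without the dim arrays, at a difference of 1.05 (adjusted p = 0.0714), and without the arrays numbered 1, at 0.90 (0.0803).

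Between sesamolin and episesamin, 0 of 9 members passed by limma and 0 had an unadjusted p below 0.05, beside 0% of all genes passing and 663 of 11576 genes at an unadjusted p below 0.05. The 95% interval of the difference ran from -0.81 to 0.15 for Pex11a, -0.20 to 0.27 for Pex19, -0.18 to 0.22 for Pex16 and -0.11 to 0.34 for Pex3. For Pex11a this leaves room for a level with sesamolin well below that with episesamin, and for Pxmp4 the interval of -1.24 to 0.94 sets almost no limit. The SD of Pex11a among the sesamolin arrays was 0.59 on the log2 scale, against 0.26 to 0.29 in the other diets.

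**Figure D4:**
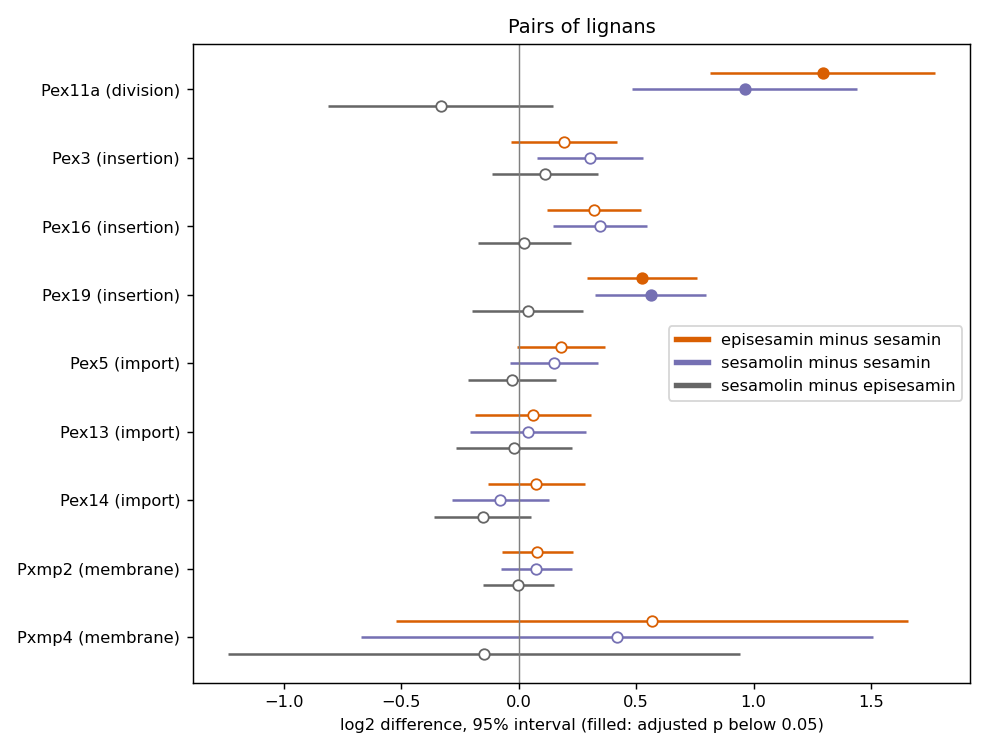
Log2 difference between each pair of lignans for the 9 members, with 95% intervals, and filled points for an adjusted p below 0.05. Filled points are those of Pex11a (1.29 and 0.96) and Pex19 (0.52 and 0.56) relative to sesamin, and every interval of sesamolin minus episesamin spans 0.

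The other genes of the pathway came from a list of 36 that hold further peroxins, fission factors shared with mitochondria, transporters, contact-site proteins and turnover factors. Of these, 31 had a probe set and 28 were tested, and 6 passed in at least 1 comparison, all higher. With sesamin 2 of 28 passed, Lonp2 at 0.50 ± 0.11 (adjusted p = 0.0391) and Aldh3a2 at 0.34 ± 0.07 (adjusted p = 0.0496). The count fell to 0 or 1 when any 1 of the 20 arrays was left out. With episesamin and with sesamolin 6 of 28 passed, which were Pex11g, Abcd3, Slc27a2, Aldh3a2, Lonp2 and Tysnd1. Of all genes tested, 0.432% passed with sesamin, 5.12% with episesamin and 6.24% with sesamolin. None of the 28 passed as lower (unadjusted p below 0.05 and lower for 0, 3 and 1 genes by limma). Other settings did call genes lower with episesamin: 5 were higher and 2 lower under median scaling, and 0 higher and 2 lower without normalization. Both that were lower, Mpv17l and Acbd4, are named here after their values were seen. Mpv17l was at -0.61 ± 0.18 in the quantile-normalized values and just missed the threshold (adjusted p = 0.0515). It passed as lower with the replicate block (adjusted p = 0.00924), an offset of 16 (0.0452) and the filter at the 60th percentile (0.0335). The same held with trended and robust eBayes (0.0273), with array weights (0.0305) and without the dim arrays (0.0364). Mpv17l also passed without lignan-free array 2, sesamin array 2 or episesamin array 3 (0.0275, 0.0444 and 0.0392). With sesamolin it passed as lower with the replicate block (0.0341). Acbd4 was at -0.53 ± 0.18 (adjusted p = 0.0918) and passed as lower without lignan-free array 3 (0.0357). Array weights also made it pass as lower (-0.58, adjusted p = 0.0325), as did leaving out the dim arrays (-0.74, 0.0387). The median change of the 28 was 0.06, 0.10 and 0.07, near those of all genes and below those of the 9 members. Since the members and this list were chosen with earlier results known, that contrast is no test of peroxins against other genes.

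Those that rose include a second PEX11 family member, Pex11g, at 0.65 ± 0.13 with episesamin (adjusted p = 0.00599) and 0.47 ± 0.13 with sesamolin (adjusted p = 0.0396), against -0.07 ± 0.13 with sesamin. The ABC transporter Abcd3, an abundant peroxisome membrane protein that carries branched fatty acyl-CoA and a client of PEX19, was at 0.75 and 0.76 ± 0.11 with episesamin and sesamolin. Slc27a2, a very long chain acyl-CoA synthetase, was at 0.61 and 0.64 ± 0.08. The matrix proteases Lonp2 and Tysnd1 were at 0.85 and 0.86 ± 0.11 and at 0.61 and 0.56 ± 0.10, and Aldh3a2, a fatty aldehyde dehydrogenase with a tail anchor, at 0.53 and 0.45 ± 0.07. Of the genes that passed in no comparison, the brightest were Vapa, a tether of the endoplasmic reticulum, with changes of 0.03, 0.11 and 0.06 ± 0.06, and Fis1, a fission adaptor, with -0.09, 0.05 and 0.07 ± 0.09.

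Between lignans, Pex11g and Abcd3 were higher with episesamin than with sesamin (0.73 ± 0.13 and 0.47 ± 0.11), and Pex11g, Abcd3 and Slc27a2 were higher with sesamolin than with sesamin (0.54 ± 0.13, 0.49 ± 0.11 and 0.34 ± 0.08). Of all genes tested, 1.23% passed for episesamin against sesamin and 1.81% for sesamolin against sesamin. None of the 28 passed between sesamolin and episesamin (0 at an unadjusted p below 0.05). The epimer count of 2 became 1 when any of lignan-free arrays 1, 2 and 5, sesamin arrays 2 to 5, episesamin arrays 1, 2, 3 and 5 or sesamolin arrays 4 and 5 was left out. With the replicate block, Mpv17l (-0.62, adjusted p = 0.0241) and Acbd5 (-0.41, 0.0471) passed as lower with episesamin than with sesamin. In the fit that gave the count of 2, neither passed (adjusted p = 0.105 and 0.0632). The count of 3 for sesamolin against sesamin became 1 without any of sesamin arrays 2, 3 and 4 or sesamolin arrays 1, 3 and 5.

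**Figure D5:**
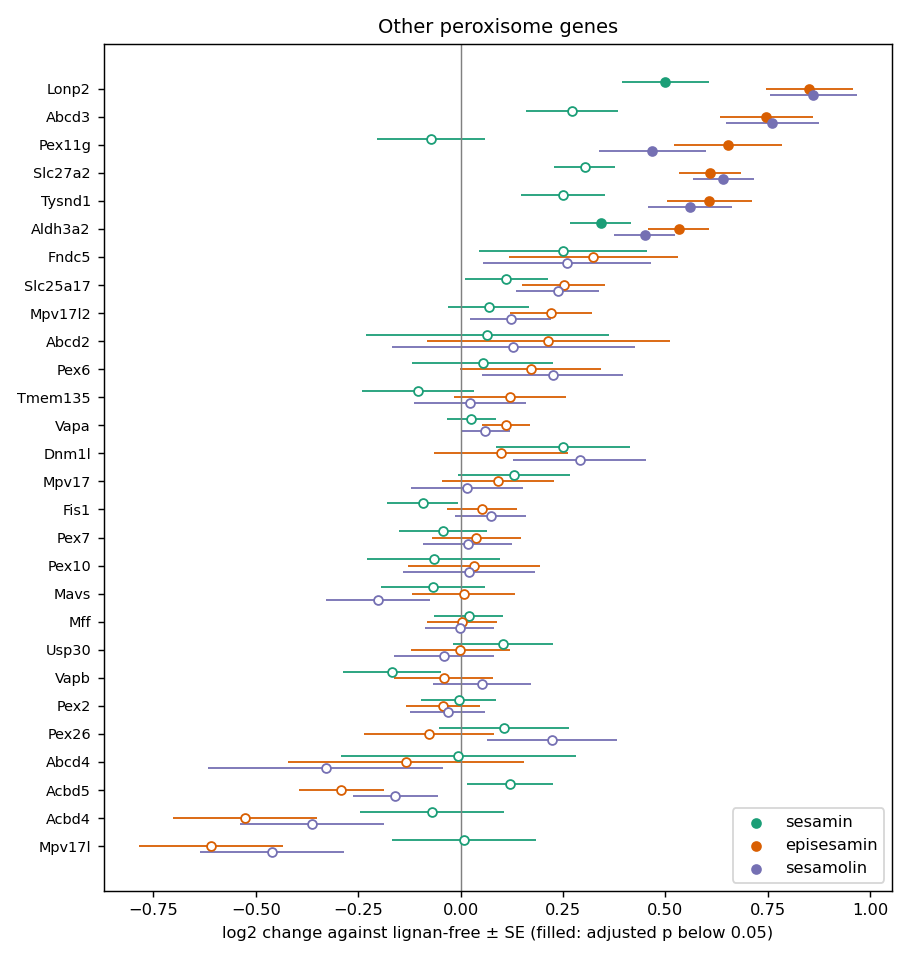
Log2 change of the 28 other peroxisome genes tested, by sesamin, episesamin and sesamolin relative to the lignan-free diet, with bars of 1 SE and filled points for an adjusted p below 0.05. All filled points lie to the right of 0 and belong to 6 genes, and the point farthest to the left is Mpv17l with episesamin at -0.61, which did not pass.

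Members and uncharacterised loci (LOC and RGD symbols) were passed over in the search for genes that ran closest to a member. Over the 20 arrays, the genes whose log2 values ran closest to Pex11a were Slc22a5, a carnitine transporter (r = 0.988, 0.857 within diets), and the acyl-CoA thioesterases Acot3 (0.977) and Acot4 (0.975). For Pex19 they were Pank1, a kinase of coenzyme A synthesis (0.952), Acot8, a peroxisomal thioesterase (0.950), and Abhd1 (0.929). Pex3 ran closest to Dele1 (0.887), Paqr7 (0.875) and Gtf3c3 (0.849), and Pex16 to Vcl, which encodes vinculin (0.847), the lipid droplet protein Plin5 (0.847) and Pdk4, a kinase that inhibits pyruvate dehydrogenase (0.836). Within diets the correlations ran from 0.699 to 0.857 for Pex11a, 0.530 to 0.763 for Pex19 and 0.625 to 0.739 for Pex3. For Pex16 they were 0.552 (Vcl), 0.272 (Plin5) and 0.399 (Pdk4). These correlations are descriptions over arrays that share the 4 diets. Among the members, Pex11a ran closest to Pex19 (0.855), with 0.384 within diets.

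Neighbours on the chromosome did not pass with the members. Of the 18 genes next to a member in the GRCr8 annotation, 13 were tested, and none of their 39 changes relative to the lignan-free diet passed by limma (2 at an unadjusted p below 0.05, lowest adjusted p = 0.237). Plin1, the tested neighbour of Pex11a, was at 0.15, -0.18 and -0.10 ± 0.40 with sesamin, episesamin and sesamolin.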

How the data were processed

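What the authors deposited is a table of intensities on a linear scale, with 31099 probe sets and 20 arrays. Per the labels' protocols, biotin-labelled cRNA was made from the total RNA of each rat, and the probe-summarising software was not given in the sources used. Array means differed by 1.70-fold, so quantile normalization was applied, followed by log2 of the value plus 5.85, the 20th percentile. Probe sets with several symbols (436), not listed in the platform annotation (9831) or serving as controls (57) were left out. The filter asked for more than 17.8 (the 40th percentile) on 5 or more arrays, and each gene was read from its brightest probe set. Diet means were fitted with limma 3.58.1 in R 4.3.3, two-sided, with Benjamini-Hochberg adjustment over 11576 genes. The fit was also run on simulated data, whose planted changes were all wider than those called for Pex3, Pex14, Pex16 and Pex19. That run does not speak to changes as small as theirs. Correlations between arrays of a diet ran from 0.951 to 0.972. Alternatives covered scaling, offset, filter, probe set summary, variance model, samples and covariates, and those for the list of other pathway genes were added after seeing the data.

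The members and lists were chosen with earlier results of these data known. All 9 members are named, and other pathway genes where they passed in any comparison plus the 2 brightest that passed in none. For members passing the F test, the 3 genes of highest correlation are named, with members and LOC or RGD symbols left out. Marker lists for stellate cells, bile duct, red blood cells, and lymphocytes and neutrophils had 0 genes passing by limma with any lignan. At an unadjusted p below 0.05, stellate markers gave 1, 2 and 4 of 8 lower with sesamin, episesamin and sesamolin, bile duct markers 0, 0 and 1 of 3 higher, red cell markers 0 of 2, and lymphocyte and neutrophil markers 0, 0 and 1 of 6 lower. Hepatocyte markers had 0, 0 and 2 of 10 passing as lower. At an unadjusted p below 0.05 they gave 0, 2 and 2 lower and 0, 1 and 1 higher.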

Additional observations from a re-analysis of the deposited data

How the results depend on the processing

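Of 54 member changes (9 members, 6 comparisons), 13 passed. Over 35 alternatives (1890 values), these calls were lost 52 times, 8 were gained and 0 reversed. Sign changed in 47 values that did not pass. Members passing with episesamin, sesamolin, episesamin against sesamin, sesamolin against sesamin and by the F test numbered 1, 2, 1, 0 and 1 under median scaling and 1, 1, 0, 0 and 1 without normalization. In fits limited to the arrays compared, the lignan pairs against sesamin gave 1 (episesamin) and 0 (sesamolin). Without the 6 dim arrays, episesamin, sesamolin, sesamolin against sesamin and the F test gave 2, 2, 1 and 2, and without the arrays numbered 1, sesamolin against sesamin gave 1. Leaving out each array in turn gave 1 to 1 members with sesamin, 3 to 4 with episesamin, 4 to 5 with sesamolin, 1 to 2 for episesamin against sesamin and for sesamolin against sesamin, 0 to 0 for sesamolin against episesamin and 3 to 4 by the F test.

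The 28 other pathway genes gave 0 with sesamin under median scaling, without normalization, without a filter, with each probe set tested singly, in fits limited to the arrays compared, with brightness as a covariate, without the dim arrays and without the arrays numbered 1, and 1 when probe sets of a gene were averaged. Without normalization, episesamin gave 2, both lower (Mpv17l and Acbd4) where all 6 had been higher, sesamolin 0 and the F test 0. Episesamin against sesamin gave 0 under median scaling and without normalization, 1 higher without a filter, with each probe set tested singly and in fits limited to the arrays compared, and 1 lower (Mpv17l) without the dim arrays. It gave 4 with the filter at the 60th percentile (3 higher and 1 lower), 5 with trended and robust eBayes (4 and 1) and 5 with array weights (3 and 2), lower: Acbd5 and, with weights, Mpv17l. Sesamolin against sesamin gave 0 under median scaling, without normalization, in fits limited to the arrays compared, without the dim arrays and without the arrays numbered 1. Leaving out each array gave 0 to 1, 6 to 7 and 5 to 6 with sesamin, episesamin and sesamolin, 1 to 3 for each lignan against sesamin, 0 to 0 for sesamolin against episesamin and 6 to 7 by the F test.

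Over all genes, the counts with sesamin, episesamin and sesamolin were 18, 263 and 263 without normalization, and 31, 352 and 376 in fits limited to the arrays compared. Without the arrays numbered 1 they were 30, 342 and 368, and without the dim arrays 273 with episesamin and 373 with sesamolin. Episesamin against sesamin went from 142 to 12 without normalization, 65 under median scaling, 81 in fits limited to the arrays compared, 85 without the dim arrays and 76 without the arrays numbered 1. In the same order, sesamolin against sesamin went from 210 to 23, 81, 52, 99 and 106. The F test went from 566 to 199 without normalization, 281 without the dim arrays and 310 without the arrays numbered 1. Left out singly, lignan-free array 4 (376) or 5 (370) or episesamin array 3 (382) or 4 (388) moved the episesamin count, and lignan-free array 5 (461) or sesamolin array 5 (472) the sesamolin count. Sesamin array 4 (92) or 5 (84) or episesamin array 5 (86) moved that of episesamin against sesamin, and sesamin array 3 (134), 4 (134) or 5 (118) or sesamolin array 3 (112) that of sesamolin against sesamin. The cause of these shifts was not tested, beyond the fewer arrays in the fits that leave arrays out.

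The labels only number the rats, and the pairing check, a correlation over 0.1 in every pair, was not met. Over 30 pairs of arrays with the same number in different diets, the deviations from the diet means correlated from -0.06 to 0.25 (10 pairs above 0.1), and 10 of 20 arrays correlated best with an array of their own number, a hint from the data, not the design. With the replicate block, 5 members passed with episesamin (Pex3 added, adjusted p = 0.033), 3 for sesamolin against sesamin (Pex16 added, adjusted p = 0.0467) and 5 by the F test, and the pathway list gave 1 with sesamin. Pex3 with episesamin also passed with the filter at the 60th percentile (0.0408) and with array weights (0.0419), and Pex16 for sesamolin against sesamin with that filter (0.0472) and with trended and robust eBayes (0.0408). The number of arrays, 5 per diet, limits the precision.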

Other observations

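Pxmp4 varied within diets more than most genes, and the genes that ran with it were looked up after its values were seen. Other members and uncharacterised loci (LOC and RGD symbols) were passed over in the ranking that follows. Commd7, a COMM domain protein gene on the same chromosome, had the highest correlation (r = 0.881 over 20 arrays, 0.824 within diets, and 0.726 over the 18 arrays other than lignan-free arrays 4 and 5). Next came Map6 (0.796), Ctrc, a pancreatic protease (0.782), Nr0b2, a nuclear receptor that represses bile acid synthesis (0.771), and Chrac1 (0.761). Over the same 18 arrays these fell to 0.547, 0.580, 0.701 and 0.601. Of the 54 tested genes within 2 megabases of Pxmp4 in the GRCr8 annotation, the median correlation was 0.01, and the second highest after Commd7 was that of Tp53inp2 (0.601). The lowest was that of Acss2 (-0.745, and -0.576 within diets). These values are a description of 20 arrays, and no test was run on them.

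Within diets, some pairs of members that rose together over the diets did not run together. Pex16 and Pex19 correlated at 0.667 over the 20 arrays and at -0.47 within diets, and Pex11a and Pex16 at 0.771 and 0.05. Pex11a and Pex3 correlated at 0.806 and at 0.620 within diets.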
